A study of Drosophila melanogaster with 9 samples.

Results

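Toll and Imd are the main humoral immune signalling routes of Drosophila, and 10 of their core genes are described here, out of 18277 genes in the annotation used. They were chosen by name: Tl, tub, pll, cact, dl and Dif of the Toll route, and PGRP-LC, imd, key and Rel of the Imd route. Chromatin accessibility was read from all peaks that overlapped each gene plus 2000 bp to each side. Such peaks numbered 36 to 54 per library, of 13464 to 18959 in the whole list. Merged over the 9 libraries they formed 60 regions, of 25489 in the genome.

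The assay was ATAC-seq, in which the transposase Tn5 inserts sequencing adapters into accessible DNA. It was run on Kc167 cells, a Drosophila melanogaster line of embryonic origin that resembles hemocytes, the blood cells of the fly. M1BP knockdown cells received 20 µg of double-stranded RNA against M1BP, a zinc-finger protein found at promoters with the DNA element Motif 1. Cp190 knockdown cells received 12 µg of double-stranded RNA against Cp190, a protein of chromatin insulator complexes. Mock cells were transfected without RNA, and all cells were cultured for 5 days. Each group had 3 libraries, and the comparisons ask how depletion of either protein changed open chromatin at these genes. No agent that induces immunity was part of any group.

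In the Toll route, the cleaved cytokine Spatzle binds the receptor Toll (Tl), and the adaptor Tube (tub) and the kinase Pelle (pll) pass the signal to the inhibitor Cactus (cact). Degradation of Cactus frees the NF-kappaB proteins Dorsal (dl) and Dif, which enter the nucleus. In the Imd route, the peptidoglycan receptor PGRP-LC signals through the adaptor Imd and a kinase complex that contains Kenny (key) to Relish (Rel), an NF-kappaB protein that is activated by cleavage. Both routes end in transcription of antimicrobial peptide genes, and Toll also sets the dorsoventral axis of the embryo.

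The lists of M1BP knockdown libraries were shorter than the others, with 13464 to 15232 peaks against 17178 to 18959 in mock, and 18005 to 18625 in Cp190 knockdown libraries against the same mock lists. The genome-average fragment coverage, recovered from the peak caller's values, was also lower in M1BP knockdown libraries, at 29.5 to 35.2 fragments against 39.7 to 41.7 in mock, and was 39.1 to 46.4 in Cp190 knockdown libraries. The part of this difference in the results on the M1BP knockdown was not tested. Of 8 hemocyte markers, 6 had a promoter peak in all 3 mock libraries and NimC1 and He had none in any library, while 0 of 4 fat body markers had one in all mock libraries. The summed percentile of the hemocyte markers was 440.7 to 475 in M1BP knockdown libraries against 479 to 504 in mock, and single markers went both ways: Pxn ranked at 46.4, 59.8 and 52.6 in the M1BP knockdown against 83.3, 76.3 and 83.3 in mock, and Hml at 92.3, 87.2 and 91.3 against 83.2, 72.2 and 76.5. Of 4 neuron markers only elav had a promoter peak, with a sum of 94.2 to 96.8 in M1BP knockdown libraries against 92.7 to 94.1 in mock. The sum of 4 muscle markers, of which 2 had a promoter peak in all mock libraries, was 91.7 to 109 in M1BP knockdown libraries against 148 to 158 in mock, and the part of these markers in the results was not tested. At the M1BP gene itself the promoter peak ranked at percentiles 61.4, 64.5 and 67.5 in the M1BP knockdown, against 77.6, 85.3 and 89.2 in mock. The Cp190 promoter ranked at 87.4, 85.6 and 86.2 in the Cp190 knockdown, against 83.7, 83.7 and 83.2 in mock. These are values of accessibility and do not measure how far either protein was depleted.

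Promoter sequences of 7 members are shown, and no relation between them and the changes at these starts was tested. As described below, the start peaks of tub and pll and those of cact, dl, Dif and Rel moved in opposite directions by percentile. By fold enrichment all 6 differences were above 0. Each sequence runs from 120 bases before to 20 bases after a transcript start on the gene's own strand, in the dm6 assembly of RefSeq. Capitals mark Motif 1 and the kappa B site (tub) and GAGAG or its reverse complement (Tl, cact and Dif), and none lies in the stretches of pll, dl and Rel. Coordinates are chr3R:4387622-4387761, plus strand (tub), chr3R:27253163-27253302, minus strand (pll), chr3R:26798921-26799060, plus strand (Tl), chr2L:16326188-16326327, minus strand (cact), chr2L:17450345-17450484, minus strand (dl), chr2L:17428180-17428319, minus strand (Dif) and chr3R:9047958-9048097, minus strand (Rel).
tub promoter: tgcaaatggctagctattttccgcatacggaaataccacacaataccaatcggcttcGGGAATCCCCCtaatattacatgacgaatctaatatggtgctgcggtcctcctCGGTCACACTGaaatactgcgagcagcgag
pll promoter: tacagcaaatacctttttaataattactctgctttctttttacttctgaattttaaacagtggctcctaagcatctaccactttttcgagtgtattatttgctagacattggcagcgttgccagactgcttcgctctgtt
Tl promoter: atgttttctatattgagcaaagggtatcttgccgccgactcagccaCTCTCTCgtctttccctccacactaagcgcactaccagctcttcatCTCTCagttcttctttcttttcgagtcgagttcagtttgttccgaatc
cact promoter: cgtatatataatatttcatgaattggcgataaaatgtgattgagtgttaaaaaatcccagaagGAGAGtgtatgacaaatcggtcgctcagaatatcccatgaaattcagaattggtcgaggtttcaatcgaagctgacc
dl promoter: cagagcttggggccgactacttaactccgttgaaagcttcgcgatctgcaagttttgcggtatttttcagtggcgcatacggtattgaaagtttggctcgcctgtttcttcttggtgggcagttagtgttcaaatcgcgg
Dif promoter: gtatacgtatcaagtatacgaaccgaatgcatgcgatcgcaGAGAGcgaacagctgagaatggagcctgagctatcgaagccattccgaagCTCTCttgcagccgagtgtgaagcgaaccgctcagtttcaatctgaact
Rel promoter: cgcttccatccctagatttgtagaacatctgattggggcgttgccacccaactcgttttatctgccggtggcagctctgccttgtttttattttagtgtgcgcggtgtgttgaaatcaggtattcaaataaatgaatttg

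Exact matches on both strands were sought from 250 bases before to 50 bases after every annotated start. Motif 1 occurred at tub, with its first base 10 bases before the start, and at key, 3 bases before the start, and at 3.20% of 24111 starts in the genome. Its core GGTCACA was present at tub, key and cact and at 7.52% of all starts. The kappa B site, the element that NF-kappaB proteins bind, matched at tub, as a pair that overlap at 63 and 62 bases before the start, and at key, 190 bases before the start, and at 2.22% of all starts. GAGAG, the core of the element bound by GAGA factor, was found at Tl, cact, dl (154 bases before the start), Dif, imd and PGRP-LC and at 32.4% of all starts. The DNA replication-related element TATCGATA matched only at imd among the members, 18 bases before its inner start, and at 6.78% of all starts. No match to any of these was found at pll or Rel.

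Peak strength was compared as the percentile of −log10 q among the peaks of the same list, so that 100 marks the strongest peak of its library. The promoter value is the highest percentile among peaks that reach within 100 bp of a transcript start, and it was fitted with limma across all genes with such a peak in all 6 libraries of a comparison. In the M1BP knockdown, 8 of the 10 members could be tested. The start peaks of Tl, tub and pll fell in rank and those of cact, dl, Dif and Rel rose, at an adjusted p under 0.05, while by fold enrichment over local background the differences of Tl, tub and pll had the opposite sign. Of 6213 genes tested, 49.5% were called lower and 10.6% higher, and the median difference over all of them was −6.10 percentile points. The balance depended on the scale: by fold enrichment 404 genes were called lower and 3677 higher, and by summit fragments over the genome average 740 lower and 2000 higher. In a bulk sample, a peak that is weaker in every cell cannot be told apart from one that is absent from a share of the cells.

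**Figure D1:**
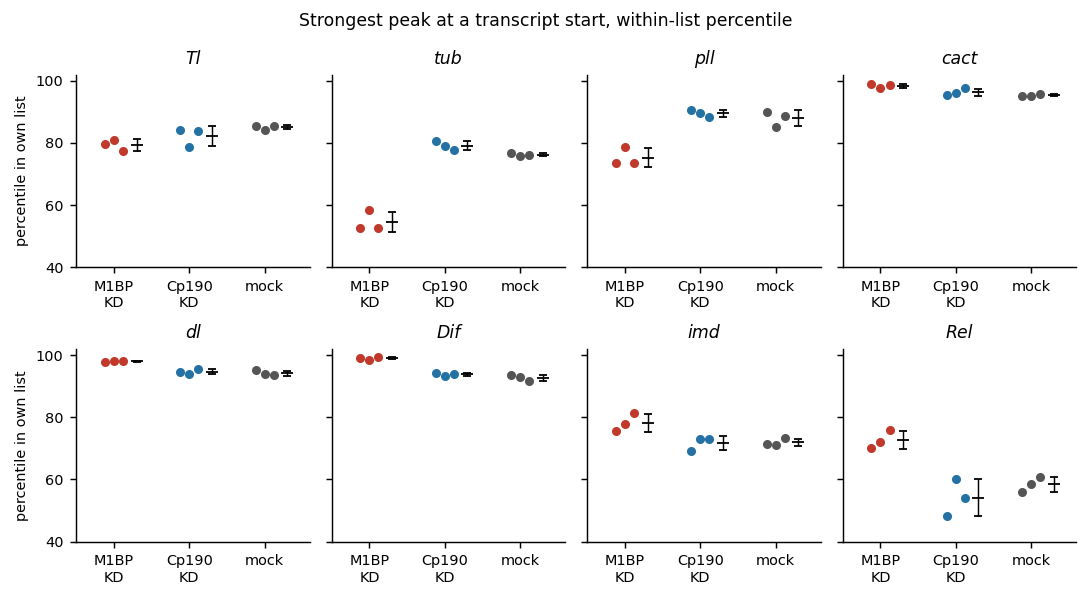
Within-list percentile of the strongest peak at a transcript start (vertical axis, percentile) of 8 members in M1BP knockdown, Cp190 knockdown and mock libraries, with the axis drawn from 40. Points are libraries and bars are mean ± SD of 3. The M1BP knockdown points of Tl, tub and pll lie below all mock points (the sign of these differences turns by fold enrichment). Those of cact, dl, Dif, Rel and imd lie above all mock points, though imd was not called by limma.

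Tl encodes the Toll receptor (FBgn0262473, chr3R:26799041-26842403, plus strand). Its start peak ranked at 79.6, 81.0 and 77.4 in the M1BP knockdown, against 85.3, 84.2 and 85.4 in mock. All M1BP knockdown libraries lay below all mock libraries, and the difference of −5.65 percentile points (SE 1.98, limma adjusted p = 0.0337) was close to the median over all genes. The call was lost without M1BP knockdown replicate 3 (−4.69 points, limma adjusted p = 0.0938) and without any 1 mock library (−5.45 to −6.03 points, limma adjusted p = 0.0618 to 0.101). Tub (FBgn0003882, chr3R:4387742-4389813, plus strand), the adaptor between receptor and kinase, had its start peak at 52.6, 58.4 and 52.8 in the M1BP knockdown, against 76.7, 75.7 and 76.3 in mock. The groups were far apart, with a difference of −21.62 points (SE 3.01, limma adjusted p = 0.000448), the largest fall among the members. Tub is, with key, 1 of 2 members whose start carries both Motif 1 and kappa B letters. A second peak over the 3′ end of tub (chr3R:4388946-4389607) ranked at 78.6, 76.3 and 72.7 in the M1BP knockdown, against 74.9, 75.4 and 73.1 in mock, and the groups overlapped. The peak at the start of CG14646, just downstream, ranked at 47.6, 55.8 and 49.3 against 67.5, 65.3 and 69.4 in mock, without overlap.

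Pll (FBgn0010441, chr3R:27251131-27253182, minus strand), the kinase that acts next to Tube, shares its start peak with TfIIA-L, a subunit gene of a general transcription factor, so the value belongs to both genes. The peak ranked at 73.6, 78.7 and 73.7 in the M1BP knockdown, against 90.0, 85.0 and 88.7 in mock. All M1BP knockdown libraries were below all mock libraries, with a difference of −12.58 points (SE 2.42, limma adjusted p = 0.00213). It was the only region found over pll.

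Cact (FBgn0000250, chr2L:16313036-16326207, minus strand), the inhibitor that holds Dorsal and Dif in the cytoplasm, had one of the strongest start peaks among the members. It ranked at 98.97, 97.8 and 98.6 in the M1BP knockdown, against 95.0, 95.2 and 95.9 in mock. The groups did not overlap, and the difference was 3.06 points (SE 0.49, limma adjusted p = 0.000835). Near the top of the scale a peak has little room to rise: of the 1606 genes whose mock percentile was over 90, 11.0% were called higher and the median difference was −2.84 points.

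The genes of the NF-kappaB proteins of the Toll route lie next to each other on chromosome 2L. Dl (FBgn0260632, chr2L:17436830-17450364, minus strand), which also patterns the embryo, shares its start peak with lncRNA:CR46204. The peak ranked at 97.8, 97.9 and 98.1 in the M1BP knockdown, against 95.1, 93.8 and 93.5 in mock, without overlap and with a difference of 3.77 points (SE 0.55, limma adjusted p = 0.000539). Dif (FBgn0011274, chr2L:17413248-17433161, minus strand), the factor that acts in the immune response of larvae and adults, ranked at 98.97, 98.6 and 99.2 at its start in the M1BP knockdown, against 93.5, 93.0 and 91.5 in mock. The rise of 6.25 points (SE 0.61, limma adjusted p = 0.000101) had the smallest adjusted p of the members. This peak covers the inner of the 2 annotated Dif starts. At the outer start the peak ranked at 66.6, 63.0 and 64.1 in the M1BP knockdown, against 61.1, 60.9 and 65.3 in mock, and the groups overlapped.

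Rel (FBgn0014018, chr3R:9044183-9047977, minus strand), the NF-kappaB protein of the Imd route, had the largest rise by percentile. By summit fragments over the genome average Dif, dl and cact rose more. Its start peak ranked at 70.1, 72.1 and 75.9 in the M1BP knockdown, against 56.0, 58.4 and 60.8 in mock. The lowest knockdown library exceeded the highest mock library, and the difference was 14.31 points (SE 3.09, limma adjusted p = 0.00362). Among the 1478 genes with a mock percentile between 50 and 70, 9.07% were called higher and the median difference was −10.2 points.

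Of the other Imd members, 0 were called at the start by limma, where only imd could be tested (unadjusted p = 0.045). Imd (FBgn0013983, chr2R:18409796-18413599, minus strand), the adaptor, had its start peak at 75.6, 77.8 and 81.3 in the M1BP knockdown, against 71.5, 71.2 and 73.3 in mock. The groups did not overlap, but the difference of 6.28 points (SE 2.71, limma adjusted p = 0.0699) missed the threshold. Key (FBgn0041205, chr2R:24785514-24787411, minus strand), the regulatory subunit of the Imd kinase complex, had a peak at its start in all 3 M1BP knockdown libraries, at 55.3, 55.8 and 65.3, but in only 2 mock libraries, at 42.9 and 55.7, so it was not tested at the start. PGRP-LC (FBgn0035976, chr3L:9338810-9348336, plus strand), the receptor, had no peak within 100 bp of any of its starts in any of the 9 libraries. An intron peak of PGRP-LC (chr3L:9340970-9341275) ranked at 37.7, 51.7 and 56.6 in the M1BP knockdown, against 49.0, 41.2 and 54.1 in mock, and the groups overlapped.

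A percentile depends on the length of its list, and the M1BP knockdown lists were shorter. Each start peak was therefore also given as the fragments over its summit divided by the genome-average coverage of its library, a measure chosen after the lists had been seen. On this scale the median over all genes was 0.13 (log2) higher in the M1BP knockdown. The differences and adjusted p-values below are against 0. With that median subtracted, the differences were 0.82 (dl), 0.64 (cact), 0.56 (Rel), 0.36 (imd), 0.27 (Tl), −0.31 (pll) and −0.52 (tub), and these were not tested. Of all calls at starts, 73.0% were then higher, against 17.6% by percentile, 90.1% by fold enrichment and 37.8% by percentile in lists of equal length. Dif reached 25.9, 21.6 and 20.9 times the genome average in the M1BP knockdown, against 10.4, 9.95 and 9.37 times in mock. The log2 difference of 1.20 (SE 0.14, limma adjusted p = 3.93e-16) stood 1.07 above the median gene. On this scale the SE of the members was nearly the same (0.13 to 0.14), since limma took it mostly from all genes. The small p-values here therefore do not measure the spread of each gene's own 3 libraries. M1BP knockdown library 1 was the highest of its group for Dif, dl, cact, Rel, imd and Tl.

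The start peak of dl rose as well, to 22.7, 19.5 and 17.9 times the average in the M1BP knockdown, against 10.9, 9.95 and 10.0 times in mock (log2 difference 0.95, SE 0.14, limma adjusted p = 9.41e-11). For cact the values were 25.6, 19.7 and 18.6 times in the M1BP knockdown and 12.0, 12.4 and 12.8 times in mock (log2 difference 0.77, SE 0.14, limma adjusted p = 3.18e-07). Rel had 9.70, 9.09 and 7.98 times the average in the M1BP knockdown, against 5.19, 5.64 and 5.78 times in mock (log2 difference 0.69, SE 0.14, limma adjusted p = 3.95e-06). In all of cact, dl, Dif and Rel the M1BP knockdown libraries lay above every mock library on both scales. Imd also passed the threshold on this scale, with 11.2, 11.0 and 9.63 times the average in the M1BP knockdown against 7.39, 7.53 and 7.74 times in mock (log2 difference 0.49, SE 0.13, limma adjusted p = 0.00124).

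**Figure D2:**
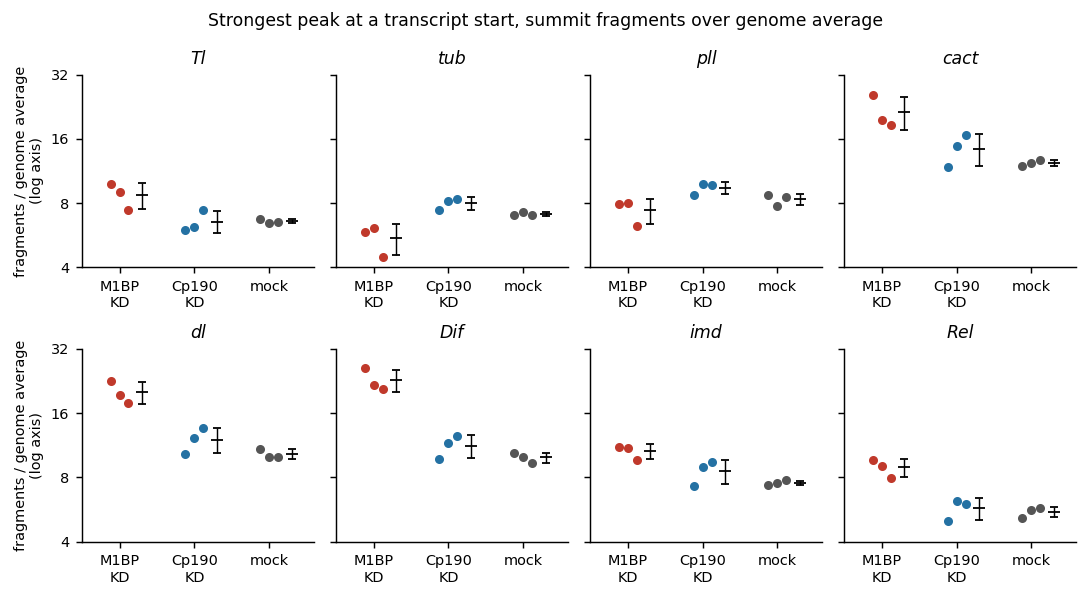
Fragments over the summit of the strongest start peak, divided by the genome-average coverage of the library (log axis), in the 8 members tested. Points are libraries and bars are mean ± SD of 3; Dif averaged 22.8 ± 2.76 times the average in the M1BP knockdown against 9.92 ± 0.53 times in mock, and tub 5.47 ± 0.88 against 7.11 ± 0.12 times.

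Tub had 5.87, 6.09 and 4.46 times the genome average in the M1BP knockdown, against 7.02, 7.25 and 7.07 times in mock, and stayed lower (log2 difference −0.39, SE 0.14, limma adjusted p = 0.0122), whereas by log2 fold enrichment over local background the sign turned to 0.10 (limma adjusted p = 0.412). That last scale moved the median gene up by 0.30, and tub stood −0.20 from it. For pll the difference was −0.18 (SE 0.14, limma adjusted p = 0.286) over the genome average and flipped to 0.26 (limma adjusted p = 0.0275) by fold enrichment. Relative to the median gene, tub was lower on all 3 scales and cact, dl, Dif, imd and Rel higher on all 3, while pll was lower on 2 and by fold enrichment stood −0.03 from it (SE 0.11), within its error. This is a description with no test of its own. Tl changed sign, since its 9.80, 9.06 and 7.42 times the average in the M1BP knockdown exceeded 6.77, 6.45 and 6.54 times in mock (log2 difference 0.40, SE 0.14, limma adjusted p = 0.00916), while its percentile fell. The direction for the Toll receptor thus depended on the scale.

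**Figure D3:**
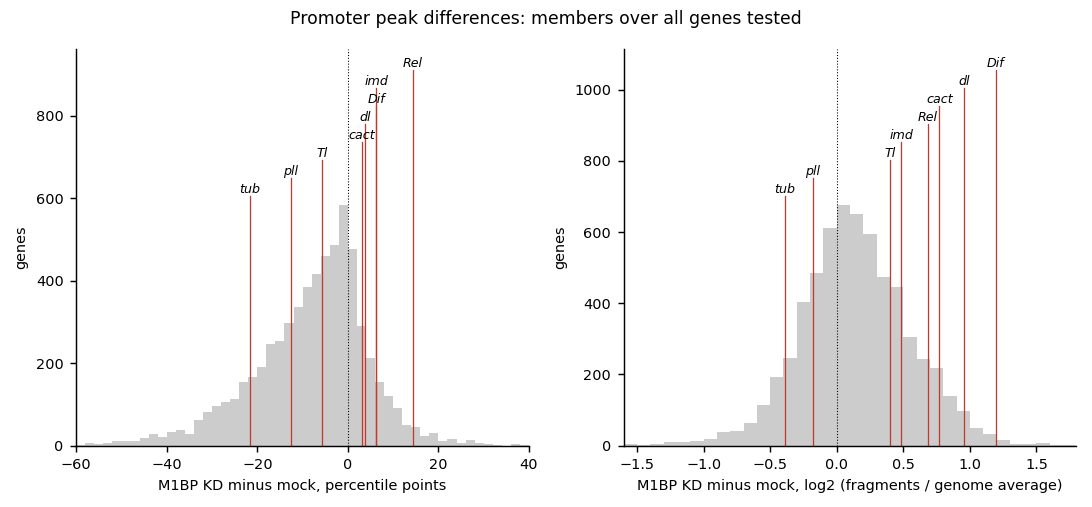
Histograms of the start peak difference, M1BP knockdown minus mock, over the 6213 genes tested (vertical axes, genes), in percentile points (left) and in log2 of summit fragments over the genome average (right), with the 8 tested members as labelled lines and a dotted line at 0. Tub and pll lie farthest left of the members in both panels, Rel at 14.31 points farthest right in the left panel, and Dif at 1.20 farthest right in the right panel.

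By percentile, calls were counted in classes of genes that share a motif, and no test of the difference between classes was run. Of 512 tested genes with Motif 1 at a start, 70.5% were called lower and 6.05% higher in the M1BP knockdown, with a median of −11.4 points, against 47.6% and 11.0% of the 5701 genes without it, with a median of −5.65. Of 2548 genes with GAGAG, 38.4% were called lower and 17.3% higher (median −2.58), against 57.1% and 5.92% of the 3665 without it (median −8.57). By fold enrichment 16.0% of the genes with Motif 1 were lower and 41.4% higher, against 5.65% and 60.8% of those without it, and by the genome average 27.3% and 15.8% against 10.5% and 33.7%. For GAGAG the shares were 4.83% lower and 67.7% higher, against 7.67% and 53.3% without it, by fold enrichment, and 7.57% and 47.2% against 14.9% and 21.8% by the genome average. Of the members with Motif 1, tub was tested, while key, at 55.3, 55.8 and 65.3 in the M1BP knockdown against 42.9 and 55.7 in the 2 mock libraries with a peak, was not. Tl, cact, dl, Dif and imd belonged to the class with GAGAG. Pll fell and Rel rose by percentile without any of the motifs. These shares describe sequence classes, and a match is not evidence of binding.

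When every peak over the gene and its flanks was considered, and the strongest taken, 6 of 10 members were called in the M1BP knockdown: pll and imd lower by percentile, though of opposite sign by fold enrichment, and cact, dl, Dif and Rel higher. The background was 47.3% lower and 10.9% higher of 13075 genes, with a median of −6.20 points. Pll, cact, dl and Rel repeat their start peak here. For imd the strongest peak lay at a start of Dp1, a gene that shares the window, except in M1BP knockdown library 3, where the imd start peak was stronger. The highest percentile in the window was 78.9, 80.8 and 81.3 in the M1BP knockdown, against 86.6, 87.2 and 87.9 in mock (−6.92 points, SE 1.44, limma adjusted p = 0.00526), but by fold enrichment the sign was reversed (0.26, limma adjusted p = 0.0199), as it was over the genome average (0.14, limma adjusted p = 0.353). So the peak at the start of imd and its stronger neighbour at Dp1 moved in opposite directions by percentile. In the Dif window the strongest mock peak was an intron peak (chr2L:17429832-17430101), which ranked at 93.6, 92.7 and 93.8 in the M1BP knockdown, against 96.9, 97.5 and 97.6 in mock, while by the genome average it was higher (19.1, 16.1 and 14.7 against 12.6, 12.7 and 12.9 times). In M1BP knockdown libraries the start peak took its place as the strongest, and the window value rose by 1.62 points (SE 0.37, limma adjusted p = 0.00783). Tl (3.00 points, limma adjusted p = 0.0878), tub (−0.33, 0.913), key (14.14, 0.0694) and PGRP-LC (3.54, 0.101) did not pass by percentile. By fold enrichment Tl (0.46, limma adjusted p = 0.00375), tub (0.62, 0.00428), key (0.80, 0.00123) and PGRP-LC (0.68, 0.00305) were called higher (median gene 0.27). Over the genome average Tl (0.73, limma adjusted p = 0.000755), key (0.50, 0.0142) and PGRP-LC (0.69, 0.00439) were called higher, but not tub (0.17, 0.396) (median gene 0.12). For tub the strongest peak was the start peak in mock and the 3′ peak in the M1BP knockdown. In the PGRP-LC window the strongest peak was at the start of PGRP-LF, a related receptor gene.

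While start peaks of cact, dl and Dif gained rank, the length of open chromatin over the same genes shrank. Covered bases are the bases of the gene and its flanks that lie in a peak, fitted as log2(bases + 100). Over dl they came to 1096, 1940 and 1603 bp in the M1BP knockdown, against 3483, 2981 and 3368 bp in mock. The highest knockdown library was well below the lowest mock library (log2 difference −1.07, SE 0.20, limma adjusted p = 0.0092). Over Dif the peaks covered 1903, 2387 and 2423 bp in the M1BP knockdown, against 3935, 3616 and 3970 bp in mock (log2 difference −0.76, SE 0.10, limma adjusted p = 0.00329). Cact had 2823, 2435 and 2681 bp in the M1BP knockdown, against 3116, 3428 and 3440 bp in mock (log2 difference −0.32, SE 0.07, limma adjusted p = 0.0172). None of these groups overlapped, but cact was not called without mock replicate 2 (limma adjusted p = 0.0576) or without mock replicate 3 (limma adjusted p = 0.0611).

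Of all 13075 genes, 41.7% were called lower and 4.80% higher in covered bases, and the median log2 difference was −0.38. Dl and Dif lost more than that median and cact about as much. When only peaks with a −log10 q of at least 20 were kept, the difference at cact turned to 0.02 (limma adjusted p = 0.747). The other 7 members were not called. In the main setting their log2 differences ran from −0.34 (key) to −0.14 (Rel), all of them below 0 and all less negative than the median gene. With a −log10 q of at least 10, or with lists of equal length, the sign turned for Tl, key and Rel. With at least 20 it turned for Tl, imd, key, PGRP-LC and Rel, and Tl was then called higher.

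**Figure D4:**
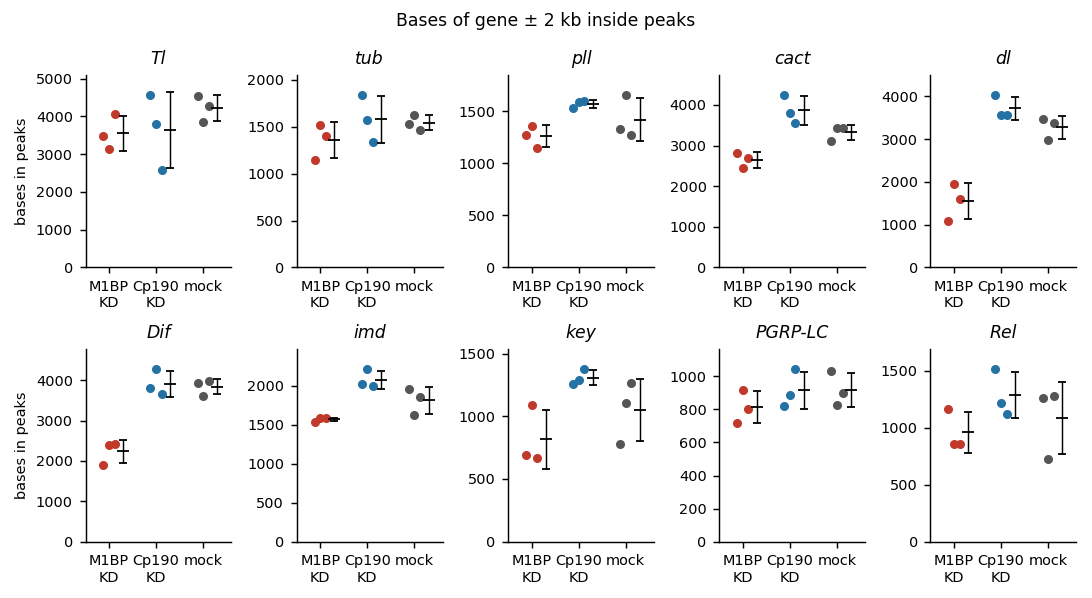
Bases of each gene ± 2 kb inside peaks (vertical axis, bases, from 0) in M1BP knockdown, Cp190 knockdown and mock libraries. Points are libraries and bars are mean ± SD of 3; at dl the M1BP knockdown points lie between 1096 and 1940 bp, below all mock points.

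Regions at starts and away from them were counted apart. Of the 60 regions, 19 reached within 100 bp of an annotated start, of a member or of a neighbour, and 16 of those had a peak in all 9 libraries. Of the 41 regions away from starts, 10 did. In the M1BP knockdown 5 regions were lost, meaning that they held a peak in all 3 mock libraries and in no knockdown library, and 0 were gained, of 57 regions with a peak in at least 1 of these 6 libraries. In the genome 9.06% of regions were lost and 3.43% gained, and the members' share of lost regions was 8.77%. With a −log10 q of at least 10, 3 of 49 member regions were lost (6.12%, against 8.45% in the genome), and with at least 20, 1 of 31 (3.23% against 6.67%). With lists of equal length 1 of 50 was lost (2.0%, against 4.93% in the genome), and without mock replicate 2, 8 of 57 (14.0% against 12.4%). All 5 lost regions lay away from starts. Counted by libraries with a peak, 20 of the 41 had fewer in the M1BP knockdown than in mock and 5 had more, against 2 fewer and 1 more of the 19 at starts. The genome was split in the same way: of 17769 regions away from starts 43.6% had a peak in fewer M1BP knockdown than mock libraries, 17.9% in more, 9.78% were lost and 19.4% had a peak in all 9 libraries, against 16.0%, 7.42%, 4.79% and 72.2% of 7720 regions at starts. The members' shares thus ran in the same order as those of the genome, and no difference between the 2 was tested.

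The lost regions were in Tl, dl and Dif. One lay in a Tl intron (chr3R:26803813-26804197), 5102 bp into the gene, where mock libraries ranked it at 26.2, 28.1 and 43.5 and Cp190 knockdown libraries still held it at 24.8, 35.0 and 28.3. Others lay over coding sequence of Tl (chr3R:26840112-26841198), of dl (chr2L:17439852-17440486) and of Dif (chr2L:17418560-17419014), with mock percentiles of 14.6, 6.36 and 24.1, of 15.7, 9.86 and 30.9 and of 1.87, 5.40 and 9.63. These 4 were weak peaks in mock, with summits at 2.015 to 2.90 times the genome average. The strongest lost region lay in a Dif intron (chr2L:17421755-17422060). It ranked at 68.0, 67.1 and 67.6 in mock, with summits 4.18, 4.13 and 4.10 times the genome average, had no peak in any M1BP knockdown library, and was called in Cp190 knockdown libraries 2 and 3 only, at 58.0 and 46.8.

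The lost intron peaks of Dif and Tl are shown with an intron peak of Tl that grew, each around its summit on the gene's strand and from the same RefSeq assembly. The spans are chr2L:17421873-17422060, minus strand (Dif lost), chr3R:26804043-26804197, plus strand (Tl lost) and chr3R:26801263-26801463, plus strand (Tl higher), and capitals mark GAGAG or its reverse complement.
Dif intron lost: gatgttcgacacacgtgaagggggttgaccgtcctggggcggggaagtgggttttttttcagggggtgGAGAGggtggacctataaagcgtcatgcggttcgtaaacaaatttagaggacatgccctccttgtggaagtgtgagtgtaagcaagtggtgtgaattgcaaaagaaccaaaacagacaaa
Tl intron lost: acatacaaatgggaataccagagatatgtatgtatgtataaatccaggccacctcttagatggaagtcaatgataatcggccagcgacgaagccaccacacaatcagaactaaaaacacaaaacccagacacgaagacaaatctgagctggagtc
Tl intron higher: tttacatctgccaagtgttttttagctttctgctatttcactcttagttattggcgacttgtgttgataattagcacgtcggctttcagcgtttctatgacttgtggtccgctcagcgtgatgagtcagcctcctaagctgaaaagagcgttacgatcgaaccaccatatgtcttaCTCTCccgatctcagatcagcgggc

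**Figure D5:**
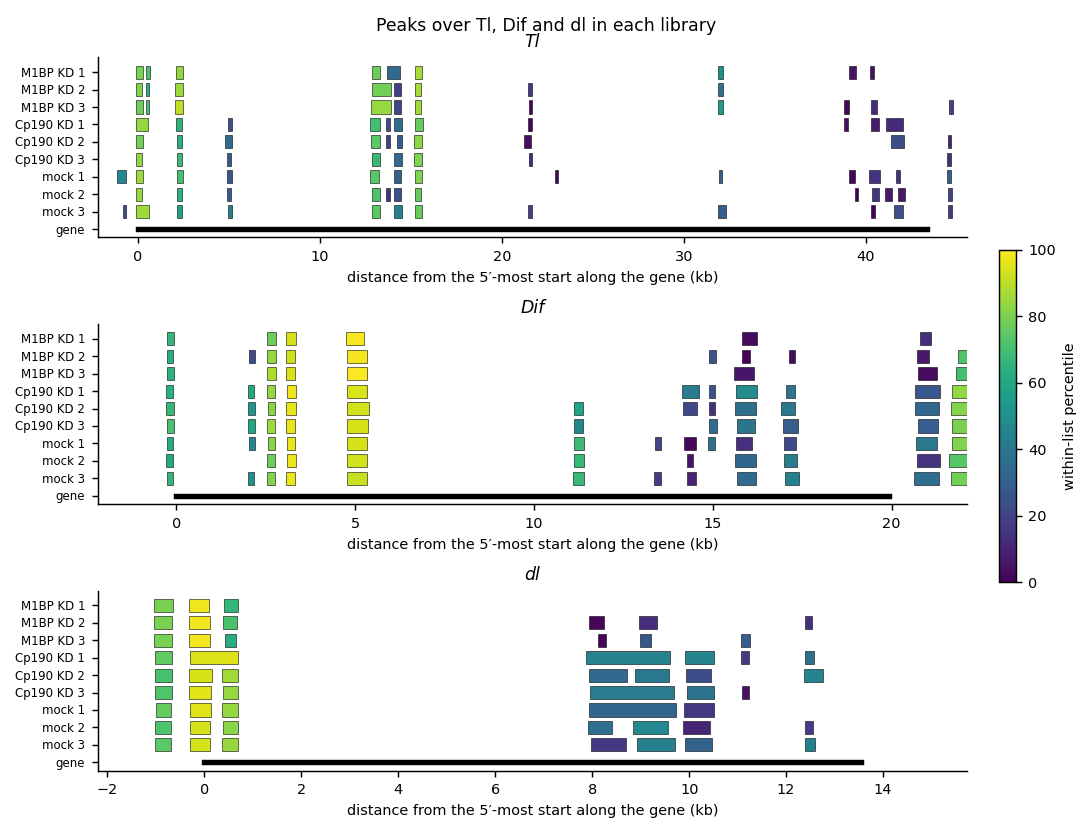
Peaks over Tl, Dif and dl in each of the 9 libraries (rows) by distance from the 5′-most annotated start along the gene (kb); boxes span the peaks, colour is the within-list percentile and the black bar is the gene. Start peaks recur in all libraries, whereas 5 regions inside the 3 genes lack boxes in every M1BP knockdown row.

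Not all regions away from starts weakened. The Tl intron peak shown last (chr3R:26801085-26801539) ranked at 83.2, 85.1 and 90.1 in the M1BP knockdown, against 70.5, 64.3 and 56.5 in mock, and its summit stood at 10.7, 9.99 and 10.3 times the genome average against 4.99, 4.51 and 3.86 times. A further Tl intron peak (chr3R:26814231-26814687) ranked at 86.9, 87.0 and 86.0 against 80.5, 76.5 and 76.8 in mock. Neither pair of groups overlapped on either scale (exact permutation p = 0.1, two-sided, the smallest that 3 against 3 libraries allow). At dl, where the start peak rose in rank, the peak about 0.5 kb inside the gene ranked at 65.7, 71.2 and 62.0 in the M1BP knockdown, against 84.0, 82.2 and 84.5 in mock, although its summits over the genome average overlapped (9.43, 9.46 and 6.99 times against 7.79, 7.36 and 7.74 times). Upstream of the dl start a further peak (chr2L:17451010-17451412) ranked at 79.7, 80.01 and 79.6 in the M1BP knockdown, against 76.1, 71.9 and 74.5 in mock, all knockdown libraries being higher. Of 27 member regions with a peak in all 6 libraries, 9 were lower and 10 higher without overlap between the groups, against 49.4% lower and 16.5% higher of 9738 such regions in the genome. The median difference was 2.12 percentile points over the member regions, against −5.88 over all.

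The width of the start peak is set by where the signal crosses the caller's threshold. Of the 8 members with a start peak in all 6 libraries, cact was narrower in the M1BP knockdown, at 1186, 1171 and 1186 bp against 1353, 1334 and 1360 bp in mock, although its summit was higher. Imd was wider, at 338, 300 and 298 bp against 254, 240 and 291 bp. In the genome 38.4% of start peaks were narrower and 16.8% wider without overlap between the groups.

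In the Cp190 knockdown 0 members were called against mock by limma in any measure. Unadjusted p-values under 0.05 were reached by 1 member in covered bases, 2 in strongest percentile and 0 at the start, and the groups did not overlap for 3, 2 and 1 members in the same order of measures. In the genome, unadjusted p-values under 0.05 were found for 16.5%, 16.0% and 11.5% of genes and groups without overlap for 23.2%, 20.4% and 16.3%, in that order. Few genes were called in this comparison at all: 1.07% lower and 0.234% higher of 6837 in promoter percentile, 4.75% and 0.742% of 13077 in strongest percentile, and 2.87% and 0.971% of 13077 in covered bases. Tub ranked at 80.5, 79.0 and 77.7 at its start in the Cp190 knockdown, against 76.7, 75.7 and 76.3 in mock. All knockdown libraries lay above all mock libraries, but the difference of 2.87 points (SE 2.22, limma adjusted p = 0.678) did not pass. Rel ranked at 48.4, 60.1 and 54.1 against 56.0, 58.4 and 60.8 in mock, with overlap (−4.21 points, SE 3.55, limma adjusted p = 0.712). These errors leave room for differences of several points, so the members are not shown to be unaffected.

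The other 6 members tested differed from mock at the start by −2.74 to 1.61 points. Dif ranked at 94.3, 93.1 and 93.8 in the Cp190 knockdown, against 93.5, 93.0 and 91.5 in mock, and dl at 94.7, 94.0 and 95.4 against 95.1, 93.8 and 93.5. Pll ranked at 90.6, 89.7 and 88.2 in the Cp190 knockdown against 90.0, 85.0 and 88.7 in mock, and cact at 95.4, 96.0 and 97.6 against 95.0, 95.2 and 95.9. All of these groups overlapped. Cact had 4239, 3803 and 3546 covered bases in the Cp190 knockdown, against 3116, 3428 and 3440 in mock, the only unadjusted p under 0.05 in that measure (log2 difference 0.21, limma adjusted p = 0.278). No region was lost or gained by the Cp190 knockdown among 58, against 2.57% lost and 1.19% gained in the genome. Of 32 member regions with a peak in all 6 libraries, 0 were lower and 7 higher without overlap in rank, against 7.02% lower and 12.6% higher of 12458 in the genome. Start peaks were wider at dl (1001, 479 and 455 bp against 450, 416 and 419 bp in mock) and at Dif (581, 626 and 604 bp against 562, 559 and 562 bp), and in the genome 3.74% were narrower and 12.3% wider. In Cp190 knockdown library 1 the dl start peak had merged with the inner peak.

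The knockdowns were also set against each other directly. At the start, tub and pll were lower and cact, dl, Dif and Rel higher in the M1BP knockdown than in the Cp190 knockdown, 6 of 9 members tested, with 53.1% lower and 8.83% higher of 6182 genes. By percentile tub differed most, at 52.6, 58.4 and 52.8 in the M1BP knockdown against 80.5, 79.0 and 77.7 in the Cp190 knockdown (−24.48 points, SE 3.12, limma adjusted p = 0.000265). By fold enrichment the tub difference was only −0.04 (SE 0.13, limma adjusted p = 0.837). Rel ranked at 70.1, 72.1 and 75.9 against 48.4, 60.1 and 54.1 (18.52 points, SE 3.81, limma adjusted p = 0.00272). Key, which could be tested here, ranked at 55.3, 55.8 and 65.3 in the M1BP knockdown and 50.8, 63.8 and 61.6 in the Cp190 knockdown, with overlap. In strongest percentile, pll and imd were lower and Tl, cact, dl, Dif and Rel higher, against 48.5% lower and 12.8% higher of 13008 genes. In covered bases, pll, cact, dl, Dif, imd and key were lower and 0 higher, against 48.2% lower and 6.93% higher. By fold enrichment the differences of pll (0.13) and imd (0.30) had the opposite sign. The calls of pll and key in covered bases, of Tl, cact and imd in strongest percentile and of cact at the start were lost without 1 or another library (limma adjusted p = 0.0506 to 0.132). Dl again differed most, by −1.25 on the log2 scale (SE 0.20, limma adjusted p = 0.00446). This comparison shares its M1BP knockdown libraries with the one against mock.

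The rest of the pathway was followed in a list of 57 other genes, from recognition proteins to antimicrobial peptides. In the M1BP knockdown 20 of 49 tested were lower and 3 higher in covered bases, 21 of 49 lower and 11 higher in strongest percentile, and 13 of 31 lower and 9 higher in promoter percentile. These counts stand beside the same backgrounds as above (41.7% and 4.80%, 47.3% and 10.9%, 49.5% and 10.6%). In the list of genes that act downstream of the Toll receptor, Myd88, Traf6, Deaf1 and wek were lower, 4 of 4, in covered bases and in strongest percentile. Among genes of recognition and ligand, 3 of 9 were lower and 2 higher in covered bases. Of 15 antimicrobial peptide genes, only 9 had enough open chromatin to be tested, with 0 lower and 1 higher in covered bases and 3 lower and 2 higher in strongest percentile (median −8.64 points). In the Cp190 knockdown 1 of 51 genes was lower in covered bases, 1 of 51 higher in strongest percentile, and 1 lower and 1 higher of 33 at the start.

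Among the largest changes of that list in the M1BP knockdown, PGRP-SC2, an amidase that degrades peptidoglycan, had 0, 180 and 0 covered bases, against 756, 1039 and 670 in mock. SPE, the protease that cleaves Spatzle, had 0, 12 and 24 covered bases, against 463, 735 and 261 in mock. The 12 and 24 bp are the edge of a peak that reaches into the window, as median peak widths in those libraries were 361 and 358 bp. Drs, the antifungal peptide gene that is the classic target of Toll, went the other way, with 447, 422 and 410 covered bases in the M1BP knockdown against 162, 170 and 0 in mock (log2 difference 1.45, SE 0.41, limma adjusted p = 0.0336). In strongest percentile casp, a negative regulator of the Imd route, ranked at 17.5, 26.4 and 30.2 in the M1BP knockdown, against 74.7, 74.4 and 73.6 in mock (−49.5 points, SE 4.19, limma adjusted p = 0.000176). PGRP-SD, a recognition protein, ranked at 30.5, 37.5 and 37.2 against 72.4, 90.9 and 65.7 in mock, and Toll-9, a relative of the Toll receptor, at 11.7, 29.0 and 26.0 against 64.9, 58.8 and 62.1. All of these groups were separate and all passed limma's threshold. These values take in every peak over a gene and its flanks, so a peak can belong to a neighbour, which was not checked for these genes. Strength is given for them by percentile only, whose sign turned on other scales for some members. In the Cp190 knockdown the receptor gene 18w ranked at 98.1, 98.2 and 98.6, against 96.3, 97.0 and 96.7 in mock (limma adjusted p = 0.0178).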

How the data were processed

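The authors' reads had been trimmed (cutadapt 1.8.1) and the authors mapped them with Bowtie2 2.3.5 to dm6, filtered them with SAMtools 1.9 and Picard, and called peaks with MACS2 2.2.5 on fragments of each library by itself, at a q-value of 0.0001 and without a control. Each summit's significance was deposited as −log10 p and −log10 q values, and its enrichment over local background as a ratio (fold enrichment), and the score column, which the authors' peak caller wrote, is not used. A shift for Tn5 is not given in the sources used here. The lists hold no reads, so depth is known only as the coverage recovered below.

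Groups were taken from the sample titles. The study describes the replicates as biological. Percentiles of −log10 q were taken within each list, over 153300 peaks in all, of which 351 lay off the main chromosomes and were left out of gene windows. Genes came from Ensembl release 115 (5889 transposable element entries left out). Fits used limma 3.58.1 in R 4.3.3 (lmFit, eBayes with trend, Benjamini-Hochberg over all genes tested, threshold 0.05, two-sided) on the 6 libraries of a comparison, and covered bases needed a mean of 100 bp. The script was tested on simulated data. Single values used exact permutation over 20 assignments, for which 0.1 is the smallest p. Fold enrichment and −log10 p fix the fragments over a summit, which came out whole (within 0.05) for 100% of summits, and the genome-average coverage was read as the minimum local background in each library. Python 3.11.15 (numpy 2.4.6; scipy 1.17.1; pandas 2.3.3) was used for the other steps. All members were named, other pathway genes by the largest called changes (at most 6 per comparison), and regions when lost, gained or strongest in a window. The inner and upstream dl peaks, the Tl intron peaks that grew, the PGRP-LC intron peak, the 3′ tub peak and the outer Dif start were chosen after their values were seen. Members and lists were chosen with earlier results of these data known. Alternatives were other thresholds on −log10 q, equal list lengths, other windows and promoter widths, no filter, another pseudocount or a linear scale, other measures of strength, all 9 libraries in 1 fit, the replicate number as a block and leaving out each library.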

Additional observations from a re-analysis of the deposited data

Results flagged for a closer look

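The effects of the 2 knockdowns differed in the results given here, each tested by limma on M1BP knockdown minus Cp190 knockdown libraries, with the adjusted p under 0.05. Such calls were common: 48.2% of all genes were lower and 6.93% higher in covered bases. The shares were 48.5% and 12.8% in strongest percentile, and 53.1% and 8.83% at the start. In covered bases the log2 differences were −0.30 (pll), −0.53 (cact), −1.25 (dl), −0.78 (Dif), −0.38 (imd) and −0.65 (key). In strongest percentile they were 4.28 (Tl), −14.2 (pll), 2.16 (cact), 3.24 (dl), 2.24 (Dif), −5.67 (imd) and 18.5 (Rel) points. At the start they were −24.5 (tub), −14.2 (pll), 2.16 (cact), 3.24 (dl), 5.17 (Dif) and 18.5 (Rel) points. By fold enrichment the tub difference at the start was −0.04 (limma adjusted p = 0.837). On that scale pll (0.13, start and strongest peak) and imd (0.30, strongest peak) had the opposite sign. Some of the calls were lost without 1 or another library, as given below. M1BP knockdown libraries also had the lower genome-average coverage, 29.5 to 35.2 against 39.1 to 46.4 fragments in Cp190 knockdown libraries, and its part in these differences was not tested.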

How the results depend on the processing

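Against mock, the M1BP knockdown results of single members were counted as unchanged in 409 combinations of member and alternative. They gained a call in 27, lost it in 18 and turned from a called value in 8. A sign change was counted as unchanged where the member was not called in the main fit. Some of these were called with the opposite sign. They were Tl in covered bases (−log10 q of at least 20), tub in strongest peak (fold enrichment) and imd at the start (1500 bp upstream). The turned values were 0.0217 for covered bases of cact with −log10 q of at least 20, 0.26 for pll by fold enrichment both at the start and as strongest peak, 0.26 (fold enrichment) and 0.14 (over the genome average) for the strongest peak of imd, 0.15 (fold enrichment) and 0.40 (over the genome average) for the start of Tl, and 0.10 (fold enrichment) for the start of tub. Between the knockdowns the turned values of members called in the main fit were all by fold enrichment, 0.13 for pll (start and strongest peak) and 0.30 for imd. For the Cp190 knockdown against mock, counting groups that do not overlap instead of limma calls gave 3 members in covered bases, 2 in strongest percentile and 1 at the start. Lost or gained regions in the M1BP knockdown were 3 with −log10 q of at least 10, 2 with at least 20 and 1 with lists of equal length. The share of regions lost in the genome moved too, from 9.06% to 8.45%, 6.67% and 4.93% in the same order. Leaving out 1 library gave 2 to 4 members called in covered bases, 6 to 7 in strongest percentile and 6 to 8 at the start for the M1BP knockdown against mock, 0 throughout for the Cp190 knockdown, and 4 to 6, 4 to 6 and 5 to 7 between the knockdowns. These counts stand without the share of all genes called in the same fits, so they describe only how stable the members' calls were. Without M1BP knockdown replicate 3, or without Cp190 knockdown replicate 2, 4 members were called in strongest percentile between the knockdowns. Regions lost or gained ranged from 5 to 9 (9 without mock replicate 2) for M1BP and from 0 to 4 for Cp190 (4 without mock replicate 2). Without mock replicate 2, 12.4% of regions in the genome were lost and 3.72% gained for M1BP, and 3.80% and 1.62% for Cp190. Without any 1 mock library, or without M1BP knockdown replicate 3, the start of Tl was no longer called. Without mock replicate 3, or without mock replicate 2, cact was no longer called in covered bases. Between the knockdowns, calls were lost for key (covered bases) without any 1 library other than M1BP knockdown replicate 2, for pll (covered bases) without Cp190 knockdown replicate 2 or 3, for Tl (strongest) without M1BP knockdown replicate 3 or Cp190 knockdown replicate 2 or 3, for cact (strongest) without replicate 1 or 3 of M1BP or 1 or 2 of Cp190 knockdown, for imd (strongest) without any M1BP knockdown library or Cp190 knockdown replicate 1 or 2, and for cact (start) without M1BP knockdown replicate 3.

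Deviations of same-numbered replicates had correlations of −0.078 to 0.038, against up to 0.107 for other numbers. With 3 libraries per group these values do not show whether same-numbered libraries share a batch. With the number as a replicate block, 2 members were called in covered bases, 7 in strongest percentile and 6 at the start for M1BP, and 0 for Cp190, where the block took the count of all genes called in covered bases to 0 against 502 without it. The share of all genes called with the block is not given here for M1BP, so its member counts describe only the stability of these calls. Over all genes, covered bases in the M1BP knockdown gave 6081 calls, but 3718 with −log10 q of at least 20 and 3502 over gene bodies alone, where strongest percentile gave 5002 against 7610. Between the knockdowns covered bases gave 7178 calls, but 4760 with −log10 q of at least 20 and 4124 over gene bodies, strongest percentile 7970, but 5195 over gene bodies, 5276 by fold enrichment and 3707 over the genome average, and promoter percentile 3829, but 1837 over the genome average. For Cp190 against mock, covered bases gave 245 calls over gene bodies, 239 to 325 without Cp190 knockdown replicate 1 or any mock library and 3028 groups that do not overlap, against 502. Strongest percentile gave 284 over gene bodies, 476 by fold enrichment, 391 with a peak in all 6 libraries, 458 without mock replicate 3 and 2663 groups that do not overlap, against 718. Promoter percentile gave 55 with −log10 q of at least 20, 162 with 1500 bp upstream, 58 in 1 fit of all 9 libraries, 53 with the replicate block, 48 to 59 without Cp190 knockdown replicate 2, mock replicate 1 or mock replicate 3 and 1117 groups that do not overlap, against 89. The part of the lower coverage of M1BP knockdown libraries in these values was not tested.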

Other observations

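The Imd cytoplasmic genes outside the members differed among themselves in the M1BP knockdown. Of 9 tested, 5 were lower and 0 higher in covered bases, against 41.7% and 4.80% of all genes. In strongest percentile 3 were lower and 4 higher, against 47.3% and 10.9% of all genes. Dredd, the caspase that cleaves Relish, had its strongest peak at 96.1, 93.6 and 93.7 in the M1BP knockdown, against 85.2, 82.2 and 83.9 in mock (10.7 points, SE 1.20, limma adjusted p = 0.000482). Spz, which encodes the ligand Spatzle, was near the top of every list, at 99.7, 99.5 and 99.7 in the M1BP knockdown against 97.9, 96.6 and 96.9 in mock (2.48 points, SE 0.41, limma adjusted p = 0.00202). CecA1, a cecropin gene, ranked at 59.3, 62.0 and 60.4 in the M1BP knockdown, against 90.1, 84.7 and 85.8 in mock, without overlap. These genes were chosen after their values were seen. Their strongest peak is that of the gene and its flanks, and whether it belongs to a neighbour was not checked. Only the percentile is given for them.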
